A study of Mus musculus with 3 samples.

Results

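Retnla, Chil3, Mrc1, Mgl2, Clec10a, Ccl17 and Ccl22 are 7 genes widely used as markers of alternatively activated macrophages. They were taken by name from a table of 13242 genes, all 7 were found, and their UMI counts were followed across 3 treatment conditions and 9 clusters of cells to ask whether they mark the same cells. The cells were macrophages sorted from a mouse leg muscle, the quadriceps, after a volume of it had been cut out (volumetric muscle loss) 1 week earlier. The wound was treated with urinary bladder matrix (UBM), a decellularised extracellular matrix material, with polycaprolactone (PCL), a synthetic polyester, or with saline, and each condition is 1 droplet library made with the 10x 3′ version 2 kit. The sources used here do not give strain, genotype, sex, age, the number of animals behind a library or the surface markers of the sort, and all 3 groups share the injury.

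Alternative activation is the state that macrophages take on under interleukin-4 (IL-4) or interleukin-13 (IL-13), which act through a receptor containing Il4ra and the transcription factor Stat6. Its markers include secreted proteins, lectin receptors that bind sugars on glycoproteins, and chemokines that attract cells bearing the receptor Ccr4. The state is associated with tissue repair, with defence against worms and with fibrosis. The 7 genes do not sit together in the genome apart from a few neighbours: in the RefSeq gene order Mgl2 lies next to Clec10a, Retnla lies next to Retnlg, Chil3 lies next to Chil4, and Ccl17 and Ccl22 are separated only by Cx3cl1.

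The counts covered 2280 UBM cells, 341 saline cells and 1753 PCL cells, with medians of 5477, 4594 and 5662 UMIs per cell and totals of 14586276, 1888343 and 11006118 UMIs. All 12 macrophage markers searched were found in each library, at a summed level of 17807 to 33372 UMIs per 1000000 UMIs counted (CPM). Cluster names are those of the authors' annotation, and the clusters were made from these cells' expression, so levels across clusters are descriptions. Cluster R2, with 254 cells, came from the UBM library alone, and 56 cells formed cluster F2, in which neutrophil markers summed to 57006 CPM in PCL. Muscle fibre markers summed to 4457 CPM in the saline cells of cluster R3, and 6 cell barcodes occurred in 2 libraries. The cell table names the conditions ECM, PBS and Synthetic, which were matched to UBM, saline and PCL by the meaning of the names. With 1 library per condition no test between conditions was possible. All intervals are 95% intervals that cover counting error only, and UMIs of 1 cell are not independent replicates.

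UBM gave the highest library level of the 2 secreted markers and of Mrc1 and Mgl2, PCL gave almost no Retnla, and Chil3 departed from the other markers by being higher with PCL than with saline. Retnla, also called RELMα or Fizz1, encodes a secreted resistin-like protein. Its level was 7187 CPM in UBM (interval 7143 to 7230), 2449 CPM in saline (2379 to 2521) and 20.4 CPM in PCL (17.8 to 23.2). UBM was thus 2.93 times saline (2.85 to 3.02), while PCL was 120 times lower than saline (105 to 138) and 353 times lower than UBM (310 to 404). Even the small PCL level rested on few cells, since 79 of its 224 UMIs were in 1 R1 cell and the level without that cell was 13.2 CPM.

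Chil3 encodes Ym1, a secreted chitinase-like protein that binds sugars and lacks chitinase activity. It stood at 483 CPM in UBM (472 to 494), 28.6 CPM in saline (21.5 to 37.3) and 201 CPM in PCL (193 to 209). Saline was the low library here: UBM was 16.9 times saline (12.9 to 22.5) and PCL was 7.02 times saline (5.36 to 9.38). Reads of Chil3 and its neighbour Chil4 may be hard to separate, because the last 500 bases of their GENCODE transcripts share an exact stretch of 126 bases. Chil4 was counted with 73 UMIs in UBM, 66 of them in R2, and with 0 in the other libraries. The same comparison gave 42 bases for Retnla and Retnlg and 15 bases for Mgl2 and Clec10a.

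The lectin receptors followed the treatments to different degrees. Mrc1, the mannose receptor CD206, was at 1167 CPM in UBM (1150 to 1185), 469 CPM in saline (438 to 501) and 426 CPM in PCL (414 to 439). Its UBM level was 2.49 times that of saline (2.33 to 2.67), and PCL and saline were close, at a ratio of 0.909 (0.846 to 0.978). Mgl2, which encodes the galactose-type lectin CD301b, was at 373 CPM in UBM (363 to 383), 214 CPM in saline (194 to 236) and 28.1 CPM in PCL (25.03 to 31.4). A single R1 cell held 95 of the 309 Mgl2 UMIs in PCL, and without it the level was 19.5 CPM. Clec10a, the related lectin CD301a, hardly separated UBM from saline, at 227 CPM (219 to 234) and 218 CPM (197 to 240), and was at 74.6 CPM in PCL (69.6 to 79.9).

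Ccl17 and Ccl22, chemokines for Ccr4-bearing cells, were scarce in every library. Ccl17 was at 4.32 CPM in UBM, 18.5 CPM in saline and 6.91 CPM in PCL. Ccl22 was at 0.960, 11.1 and 10.4 CPM. The PCL value of Ccl22 rested on 1 cell, which held 108 of 115 UMIs and without which the level was 0.637 CPM.

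**Figure D1:**
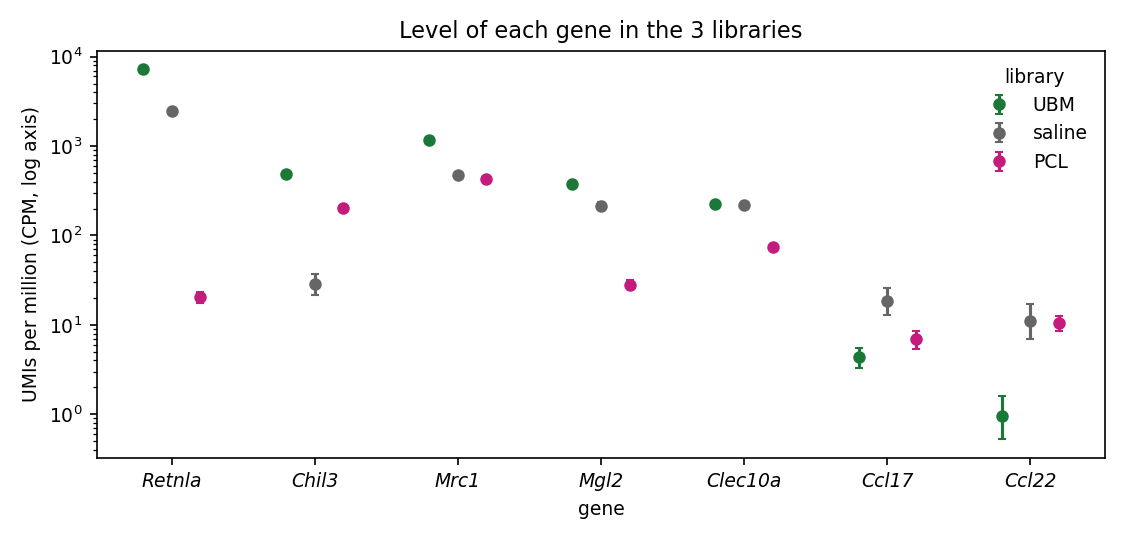
Level of each gene in the 3 libraries, in UMIs per 1000000 on a log axis, with exact Poisson 95% intervals as bars. Retnla spans the widest range, from 20.4 CPM in PCL to 7187 CPM in UBM, and Chil3 is the gene whose lowest point is saline.

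Counted by size, 5 of the 7 genes reached the minimum of 50 CPM in at least 1 library of every pair, and Ccl17 and Ccl22 did not. A gene was called when it differed at least 2-fold after adding 10 CPM to both levels. Against saline, 3 of 5 genes were higher in UBM (Retnla, Chil3 and Mrc1), where 3.89% of all 2753 genes past the minimum were, and 0 were lower, where 6.21% were. PCL against saline gave 1 of 5 genes higher (Chil3; 4.21% of all genes) and 3 of 5 lower (Retnla, Mgl2 and Clec10a; 3.36%). PCL against UBM gave 5 of 5 lower (2.85%) and 0 higher (5.88%). The median log2 ratio of the 5 genes was 1.30, -1.43 and -1.48 in these comparisons, beside -0.04, 0.09 and 0.16 over all genes tested. The comparisons share libraries, so they are not separate evidence.

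The libraries also differ in their mix of clusters. In UBM, clusters RP2 and RP1 held 28.1% and 25.2% of the cells, while in PCL cluster FP1 held 59.1%. With FP1 and RP3 alone and given equal weight, since no other cluster had 50 or more cells under each treatment, 3 rather than 5 genes were at least 2-fold lower in PCL than in UBM: the log2 difference was -0.20 for Mrc1 and -0.50 for Clec10a, against -7.01 for Retnla. The same weights left 2 rather than 3 genes higher in UBM than in saline, with Mrc1 at 0.33 instead of 1.30, and 2 rather than 3 lower in PCL than in saline, with Clec10a at -0.51 instead of -1.43. The share of all genes called under these weights was not computed.

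Across clusters the 7 genes did not share 1 pattern. Retnla was highest in RP3 and R2 of UBM, at 23642 and 17326 CPM, followed by F1 at 10176 CPM and R1 at 10116 CPM. R1 and RP3 were also its highest clusters in saline, at 7063 and 5246 CPM. Of the PCL clusters with at least 20 cells, RP3 was the highest at 189.5 CPM, and FP1 and F1, which together held most PCL cells, were at 2.91 and 4.51 CPM. Without its top cell, RP3 of PCL was at 129 CPM. RP3 was thus among the highest clusters under each treatment, on levels that were 125 times lower in PCL than in UBM (103 to 152).

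Chil3 was low in RP3, the UBM cluster with the highest Retnla CPM. Within UBM it was highest in R2, at 1762 CPM, and stood at 78.3 CPM in RP3. The UBM cells of FP1 came next at 924 CPM, but 46.2% of those UMIs were in 1 cell and the level without it was 509 CPM. RP1 followed at 471 CPM, where Retnla was at 528 CPM, its lowest UBM value among clusters of at least 20 cells. In PCL, Chil3 was highest in F1 at 409 CPM, where 58.7% of cells had a UMI, and was 144 CPM in FP1.

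The lectins overlapped most in R2 and RP3. Mrc1 was at 2657 CPM in R2 and 1502 CPM in RP3 of UBM, and at 555 CPM in R1. Mgl2 was at 964 CPM in R2, 813 CPM in RP3, 655 CPM in F1 and 549 CPM in R1 of UBM. Clec10a was highest in RP3 in every library, at 873 CPM in UBM, 934 CPM in saline and 644 CPM in PCL, and was 503 CPM in R2. R1 therefore combined high Retnla and Mgl2 with low Mrc1 and with 128 CPM of Clec10a. The top UBM cluster was R2 for Chil3, Mrc1 and Mgl2 and RP3 for Retnla and Clec10a. A marker outside the 7, Il4ra, was also highest in R2, at 521 CPM, against 51.2 CPM in R1 of UBM, and Stat6 varied only between 33.8 and 53.1 CPM across the UBM clusters.

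**Figure D2:**
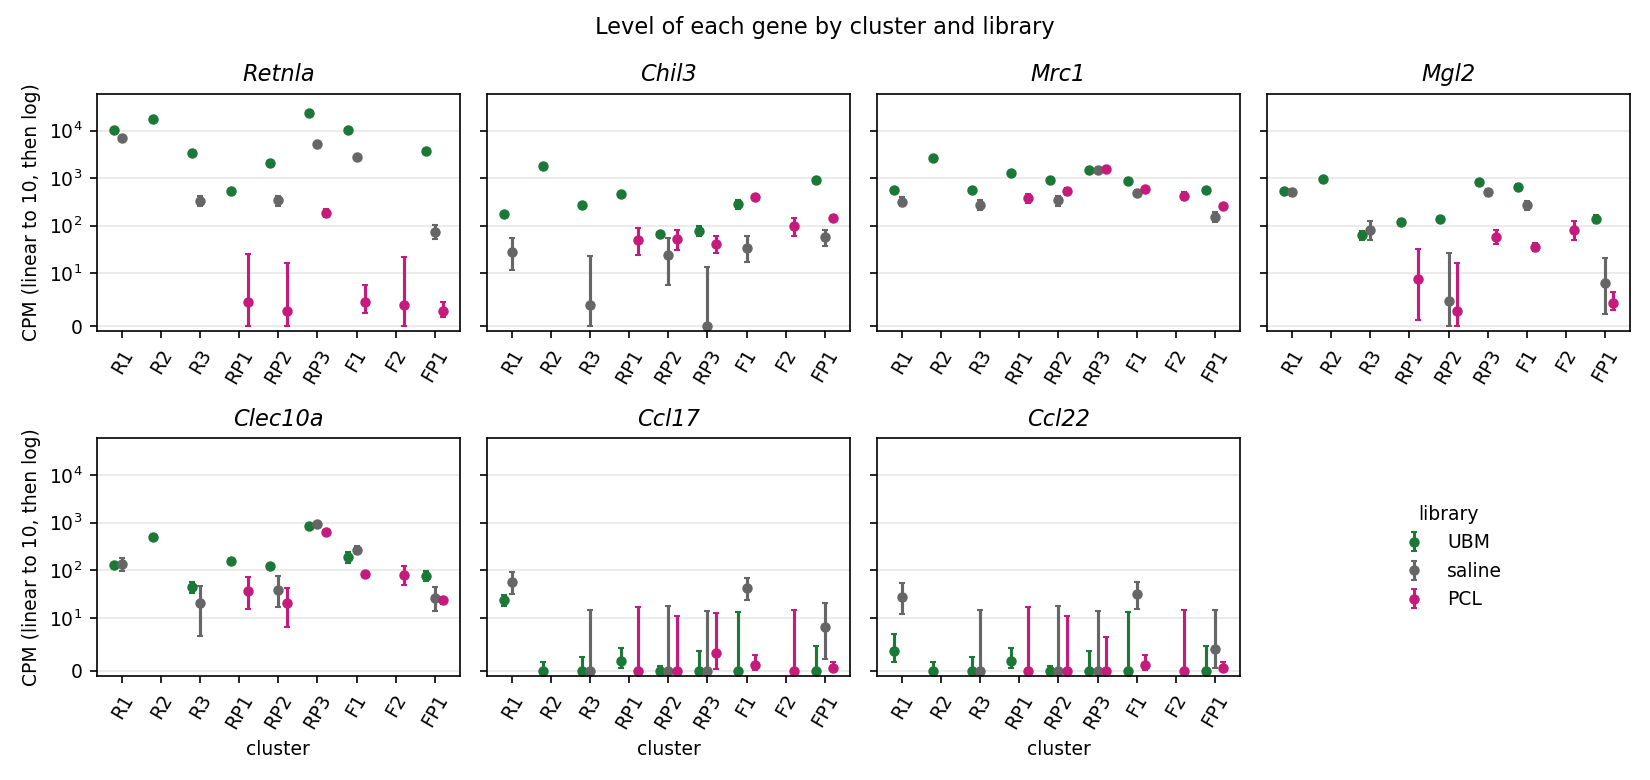
Level of each gene in every cluster and library with at least 20 cells, in UMIs per 1000000 (axis linear to 10, then logarithmic), with exact Poisson 95% intervals. Mrc1 in RP3 lies at 1485 to 1535 CPM in all 3 libraries, while Retnla in RP3 runs from 189.5 to 23642 CPM.

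In RP3, one of the 2 clusters with 50 or more cells under each treatment, the genes did not vary alike. Mrc1 in RP3 was at 1502 CPM in UBM, 1485 CPM in saline and 1535 CPM in PCL, and all 3 ratios had intervals that included 1 (0.905 to 1.13 for UBM over saline, 0.917 to 1.17 for PCL over saline, 0.939 to 1.11 for PCL over UBM). In the same cells Retnla was at 23642, 5246 and 189.5 CPM. Mgl2 had the same order, at 813, 506 and 58.6 CPM, and Clec10a was at 873, 934 and 644 CPM. The cells of RP3 thus differed little in Mrc1 under the 3 treatments, while Retnla and Mgl2 were low with PCL. Under other scalings the small differences of Mrc1 changed sign, the widest being a log2 ratio of -0.19 for PCL over UBM with the trimmed mean of M values. Cd163, a scavenger receptor, was at 487, 499 and 351 CPM in RP3.

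FP1 gave another picture. Against saline, UBM cells of FP1 had higher levels of 5 of 5 genes past the minimum (4.09% of all genes were higher): Retnla at 3779 against 73.7 CPM, Chil3 at 924 against 57.3, Mrc1 at 557 against 152, Mgl2 at 136 against 8.19 and Clec10a at 76.9 against 26.6 CPM. Leaving out the top cell of each gene in each library left all 5 at least 2-fold higher, although 46.3% of the Retnla UMIs in UBM and 47.2% of those in saline were in 1 cell. In RP3 the same pair gave 2 of 5 genes higher (3.89%), Retnla and Chil3. Chil3 had 76 UMIs in UBM and 0 in saline, so that UBM was at least 7.01-fold higher, with 3 UMIs per library taken as the floor, but 42.1% of the UBM UMIs were in 1 cell and without it Chil3 was at 45.5 CPM, under the minimum. None of the 5 was 2-fold lower in FP1 (5.55%) or in RP3 (7.64%).

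For PCL against saline, F1 had 1 of 5 genes higher (4.82%), Chil3 at 409 against 34.2 CPM, and 3 of 5 lower (3.15%): Retnla at 4.51 against 2805, Mgl2 at 35.8 against 271 and Clec10a at 82.99 against 271 CPM. Mrc1 in F1 was 587 against 490 CPM, a ratio of 1.20 (1.02 to 1.41). In FP1, Chil3 was higher with PCL (1 of 3; 4.04%) and Retnla lower (1 of 3; 2.28%), at 144 against 57.3 and 2.91 against 73.7 CPM, but Retnla in saline was at 39.3 CPM without its top cell, under the minimum. In RP3, 2 of 4 genes were lower with PCL (4.14%), Retnla and Mgl2, and 0 of 4 higher (5.36%). For PCL against UBM, 5 of 5 were lower in FP1 (2.97%), 3 of 5 in RP2 (2.27%; Retnla, Mgl2 and Clec10a) and 2 of 5 in RP3 (1.78%; Retnla and Mgl2), and 0 were higher in any of them (5.13%, 3.92% and 6.07%). Retnla and Mgl2 were thus the pair that was at least 2-fold lower with PCL than with UBM in every cluster that could be compared. Clec10a was also lower in each, in RP3 at a ratio of 0.738 (0.652 to 0.835). Chil3 was below 1 in each too, with an RP2 interval that included 1 (0.460 to 1.27).

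Retnla and Mgl2 were also each other's closest gene over the 20 groups of 1 cluster in 1 library with at least 20 cells. The Pearson correlation of their log2(CPM + 10) levels was 0.86, the highest for either gene among 4339 genes that reached 50 CPM in a group. These correlations are descriptions over groups that share 3 libraries. Next for Retnla were Batf3 (0.85) and Etv3 (0.81), both transcription factors, and next for Mgl2 were Hivep2 (0.78) and Borcs6 (0.78). Mrc1 was closest to Cd163 (0.94), Ap2a2 (0.93) and Etv1 (0.92), and Clec10a was closest to Cd163 (0.87), Rcn3 (0.87) and Egr1 (0.84). Chil3 was closest to none of the other markers but to Pdia4 (0.88), Nme2 (0.86) and Ndufb9 (0.85), and its correlation with Retnla was 0.15. Ccl17 and Ccl22 had a correlation of 0.94 with each other, but their highest group levels were 55.5 and 31.3 CPM and few cells carried them. Saline F1 had 15 and 11 UMIs of them in 2 cells. R1 of UBM had 58 and 9, with 38 of the Ccl17 UMIs in 1 cell. The genes closest to them rest on the same few cells. Past the 50 CPM minimum, Ccl17 was closest to Tnfsf9 (0.89), H2-DMb2 (0.80) and Unc119 (0.78), and Ccl22, beside Ccl17, to Tnfsf9 (0.89) and Spink2 (0.76).

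The stretches before the start sites of Retnla, Mgl2, Ccl17 and Ccl22 are shown because the levels of the first pair, and of the second on few cells, varied together over clusters. RefSeq (GRCm38.p6) promoter entries were found for 6 of the 7 genes, all but Clec10a. Each line gives 250 bases before the start site, 5′ to 3′ on the gene's own strand. Capitals mark matches to 4 motifs searched on both strands: TTCNNNNGAA, the palindrome known for STAT6, TTCNNNGAA, the palindrome of other STAT factors, GAGGAAG, a core of PU.1 sites, which reads CTTCCTC on the opposite strand, and TTGCNNAA, a C/EBP-type core. Retnla is at chr16:48842359-48842608 and Mgl2 at chr11:70130107-70130356, both on the plus strand. Ccl17 is at chr8:94810203-94810452 and Ccl22 at chr8:94745434-94745683, also on the plus strand.
Retnla: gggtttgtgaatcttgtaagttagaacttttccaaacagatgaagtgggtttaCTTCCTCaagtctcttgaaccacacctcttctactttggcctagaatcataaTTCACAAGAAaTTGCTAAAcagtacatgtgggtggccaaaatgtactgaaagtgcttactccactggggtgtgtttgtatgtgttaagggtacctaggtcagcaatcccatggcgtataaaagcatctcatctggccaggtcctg
Mgl2: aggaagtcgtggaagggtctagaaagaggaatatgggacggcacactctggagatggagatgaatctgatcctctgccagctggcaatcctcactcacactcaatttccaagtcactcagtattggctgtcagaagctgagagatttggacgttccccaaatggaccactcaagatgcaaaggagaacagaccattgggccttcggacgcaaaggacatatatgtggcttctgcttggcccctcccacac
Ccl17: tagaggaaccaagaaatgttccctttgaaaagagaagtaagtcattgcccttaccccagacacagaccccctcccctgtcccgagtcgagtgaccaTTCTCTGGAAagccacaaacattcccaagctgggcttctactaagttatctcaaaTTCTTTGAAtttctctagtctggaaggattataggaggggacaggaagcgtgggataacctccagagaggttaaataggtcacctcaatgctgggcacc
Ccl22: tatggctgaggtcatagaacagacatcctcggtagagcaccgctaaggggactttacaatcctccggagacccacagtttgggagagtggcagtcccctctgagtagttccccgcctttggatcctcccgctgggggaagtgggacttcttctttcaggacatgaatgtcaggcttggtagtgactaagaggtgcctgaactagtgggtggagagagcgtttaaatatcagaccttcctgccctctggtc
Retnla and Ccl17 hold TTCNNNNGAA, as do 5.85% of the 32851 promoter stretches of this length. In Retnla the match TTCACAAGAA begins 145 bases before the start site and is followed after 1 base by the TTGCNNAA match TTGCTAAA, a motif found in 9.56% of promoters. The other capitals of Retnla are GAGGAAG, held by 10.6% of promoters and also by Mrc1. Ccl17 in addition holds TTCNNNGAA, as does Chil3 with TTCTTAGAA 172 bases before its start site, against 7.02% of promoters. None of the 4 motifs was matched in these windows of Mgl2 and Ccl22. A match describes letters and is not a binding site, and letters that are absent from this window say nothing about the factor.

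Whether the genes were in the same cells was asked by counting cells with a UMI of both genes. Cells were first thinned to 2500 UMIs each, which kept 3979 cells and left out 162 UBM, 79 saline and 154 PCL cells with fewer. The number of cells expected to hold both genes was computed as if detection of each were independent within each cluster of each library. Of 21 pairs, 13 had at least 5 expected cells. All 13 ratios of observed to expected cells lay between 0.815 and 1.22, with a median of 1.06. 11 were above 1 and 0 reached 1.5. Beside that count, 0.024% of all genes reached 1.5 with Retnla, 0.263% with Chil3, 0% with Mrc1, 0.3% with Mgl2, 0.192% with Clec10a, 16.2% with Ccl17 and 18.2% with Ccl22. A ratio cannot exceed the cells of the scarcer gene over the expected cells. For Mrc1 and Mgl2 these were 780 and 635 cells. The pairs of Mrc1 with Retnla, Chil3, Mgl2 and Clec10a could therefore not reach 1.5 even with full overlap. Overlap is also bounded within each library, and in PCL 23 cells had Retnla and 42 had Mgl2. With that bound Retnla and Mgl2 could not reach 1.5 either. Bounds within clusters, which are tighter, were not computed, so the count of 0 says little about these pairs.

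Mgl2 and Clec10a, the 2 CD301 lectins, had the highest ratio of the 13 pairs. Both were detected in 375 cells where 307 were expected, a ratio of 1.22, which placed Clec10a at rank 336 of 8333 genes by its ratio with Mgl2. Retnla and Mgl2 were together in 561 cells (512 expected; 1.095), Retnla and Chil3 in 266 (245 expected; 1.09), and Retnla and Clec10a in 488 (456 expected; 1.07). Mrc1, detected in 2643 cells, was met in 1115 of the 1384 Retnla cells (1094 expected; 1.02). Chil3 and Mrc1 were together in 532 cells (526 expected; 1.01). By its ratio with Retnla, Mgl2 had rank 870 of 8347 genes, Chil3 991, Clec10a 1355 and Mrc1 3157. The median ratio of those genes with Retnla was 1.00. With the expectation taken within each library alone these ratios were larger: Mgl2 and Clec10a had a ratio of 1.73, Chil3 and Mgl2 1.45 and Retnla and Mgl2 1.31.

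**Figure D3:**
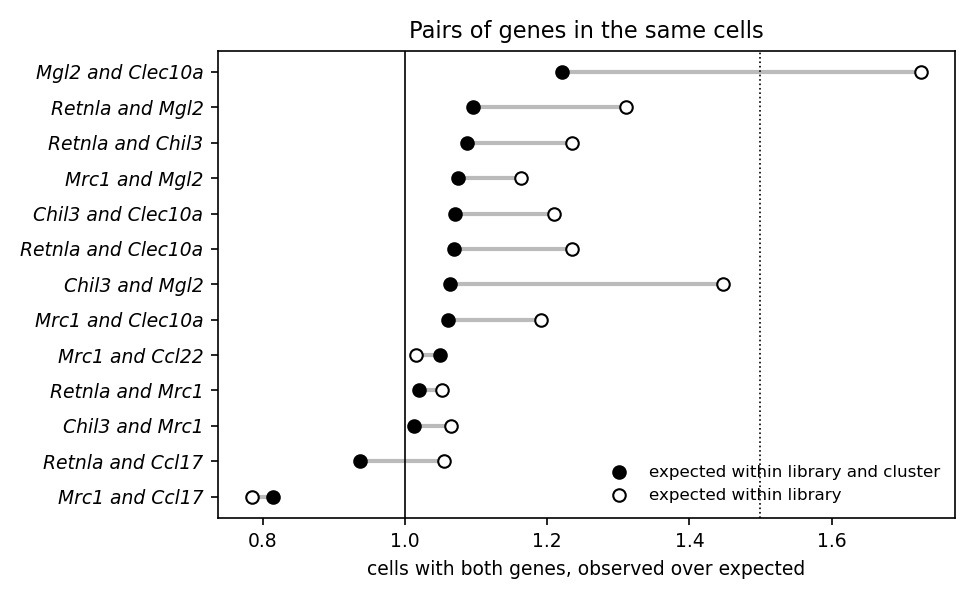
Cells with both genes, observed over expected, for the 13 pairs with at least 5 expected cells after thinning to 2500 UMIs, with lines at ratios of 1 and 1.5. Filled points, with the expectation taken within library and cluster, lie between 0.815 and 1.22, and open points, taken within the library alone, reach 1.73 for Mgl2 and Clec10a.

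Library by library the pairs were not alike. In PCL, Mgl2 and Clec10a were together in 21 cells where 11.4 were expected (1.83), and Chil3 and Mgl2 in 7 where 10.8 were expected (0.646). UBM gave 1.21 and 1.09 for these pairs, and saline gave 1.06 for Mgl2 with Clec10a. No difference between libraries was tested. Of genes outside the 7, Cd209a, a lectin also found on dendritic cells, met both lectins often: 56 cells held it with Mgl2 (34.7 expected; 1.62) and 56 with Clec10a (33.4 expected; 1.68). It was chosen after its values were seen. The 3 highest ratios were 1.79, 1.76 and 1.74 for Mgl2 (Lrrc45, Gm18025 and Yars2) and 1.95, 1.88 and 1.77 for Clec10a (Ccar2, Sgsm2 and Usp46), each resting on 12 to 26 cells with both genes. For Retnla they were 1.52 (Hopx), 1.51 (Zfp64) and 1.47 (Gbp9), and for Chil3 1.72 (Btbd7), 1.70 (Zmym3) and 1.68 (Alkbh2). For Mrc1 they included 1.24 (Tubgcp3) and 1.23 (Gm43848). For the scarce chemokines, with at least 1 expected cell asked, the highest ratios were 4.88 (Setd5), 3.88 (Shc1) and 3.88 (Rab12) with Ccl17 and 4.96 (Appl1), 4.31 (Fnbp1) and 4.10 (Cbfa2t3) with Ccl22, on 4 to 6 cells each.

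Detection of Retnla says little in UBM, because a UMI of it was found nearly everywhere. In UBM 78.6% of cells had at least 1 Retnla UMI, including 5 of the 8 UBM cells of the neutrophil-marked cluster F2 (62.5%, median 4439 UMIs per cell) and 64.6% of RP1 cells (median 4250 UMIs per cell). F2 cannot set a background, since its share has an interval of 24.5 to 91.5% and 1 cell held 47 of its 78 Retnla UMIs. Whether single Retnla UMIs are background was not tested. The number of UMIs per cell did separate clusters: the median was 82.5 in R2, 42 in RP3, 5 in R1, 3 in F1 and 1 in RP1 and RP2. After thinning, at least 10 of 2500 UMIs were Retnla in 70.7% of R2 cells, 61.1% of RP3 cells, 37.4% of R1 cells and 1.4% of RP1 cells of UBM. In saline the same cut held 38.5% of R1 and 34.7% of RP3 cells, and in PCL 4 of 1599 cells. Of all thinned cells 523 passed this cut and 173 had 5 to 19 Retnla UMIs, so many cells lie near it.

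**Figure D4:**
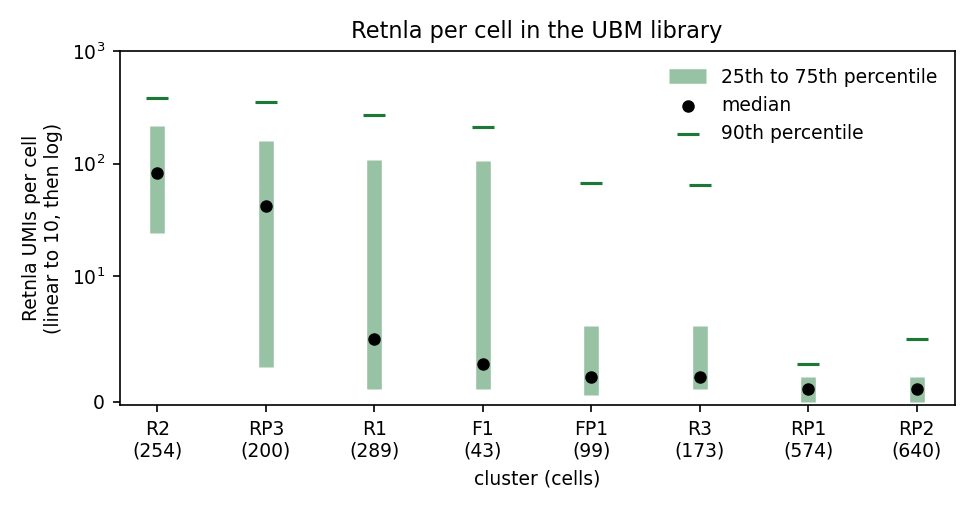
Retnla UMIs per cell in the UBM library by cluster (axis linear to 10, then logarithmic): median as a point, 25th to 75th percentile as a bar, 90th percentile as a dash. R2 and RP3 have medians of 82.5 and 42 UMIs, while RP1 and RP2 have medians of 1.

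With Retnla counted as present only at 10 or more of 2500 UMIs, a cut added after the data were seen, its ratios were 1.24 with Mgl2 (361 cells, 292 expected) and 1.22 with Chil3 (154 cells, 127 expected). They were 1.11 with Clec10a and 1.07 with Mrc1. Ccl17 was in 2 of these cells (3.07 expected) and Ccl22 in 0 (1.79 expected). As a further description, the Pearson correlation of log2(thinned UMIs + 1) over 3979 cells, after removing the mean of each cluster and library, was 0.21 for Retnla and Mgl2, 0.17 for Mgl2 and Clec10a, 0.11 for Retnla and Chil3, and 0.00 for Chil3 with Mgl2 and with Clec10a. These cells share 3 libraries and a depth of 2500 UMIs.

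Levels of the other genes in the 25% of cells with least and the 25% with most Retnla (by share of UMIs, ties included) were compared within each UBM cluster, after taking Retnla's own UMIs out of each total. Mgl2 was higher in the Retnla-rich cells of 6 of 7 clusters. In RP3 it was 324 CPM in the Retnla-poor and 1043 CPM in the Retnla-rich cells, a ratio of 3.21 (2.48 to 4.21), and in R2 696 and 1408 CPM, a ratio of 2.02 (1.79 to 2.29). RP1, with medians of 0 and 3 Retnla UMIs in its poor and rich cells, was the cluster without such a difference, at a ratio of 0.9497 (0.707 to 1.27), which became 1.18 without the Retnla-poor cell with most Mgl2.

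Chil3 and the lectins behaved differently from cluster to cluster. Chil3 was 1073 CPM in the Retnla-poor and 3299 CPM in the Retnla-rich cells of R2, a ratio of 3.07 (2.80 to 3.37), and 2.68 or 3.48 without the cell with most Chil3 among the rich or the poor cells. In RP3 it was 64.9 and 83.1 CPM, a ratio of 1.28 (0.635 to 2.65), and 0.597 or 3.81 without the top Chil3 cell of either side, so its direction rests on single cells. RP2 gave the widest difference, 12.2 and 184 CPM, a ratio of 15.03 (7.97 to 31.9), and 11.1 or 18.7 without such a cell. The FP1 ratio of 5.17 became 1.84 without 1 cell, which held 1388 Retnla and 339 Chil3 UMIs and was the top UBM cell for both genes. It became 9.60 without the top Chil3 cell of the Retnla-poor side. The R3 ratio of 6.38 became 3.22 or 11.1, and the RP1 ratio of 1.18 became 0.737 or 1.47, without the top Chil3 cell of the rich or the poor side. Mrc1 was higher in the Retnla-rich cells of 5 of 7 clusters, with intervals above 1. It was 1358 and 1458 CPM in RP3, a ratio of 1.07 (0.923 to 1.25), and 2769 and 2407 CPM in R2, a ratio of 0.869 (0.806 to 0.937), but in R1 it was 379 and 870 CPM, a ratio of 2.29 (1.96 to 2.69). Clec10a was 471 and 907 CPM in RP3 (1.92; 1.53 to 2.43) and 548 and 471 CPM in R2 (0.859; 0.724 to 1.02).

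**Figure D5:**
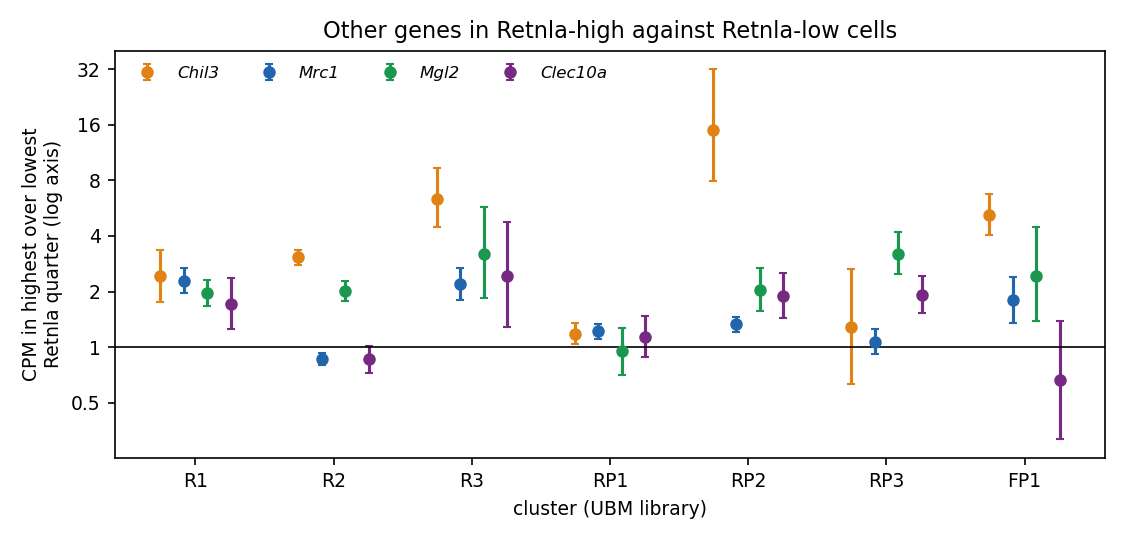
Level of 4 genes in the 25% of cells with most Retnla over that in the 25% with least, within each UBM cluster of at least 50 cells, on a log axis with exact conditional binomial 95% intervals that cover counting error only. Mgl2 lies above 1 in 6 of 7 clusters, and Mrc1 has its interval above 1 in 5 of 7, the others being RP3 (1.07) and R2 (0.869).

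In the PCL cells of F1, where Chil3 was high without Retnla, Chil3-rich cells had less of the CD301 lectins. The 114 cells with most Chil3 (median 7 UMIs) had 10.2 CPM of Mgl2 and 55.2 CPM of Clec10a, and the 188 cells at the low end, with a median of 0, had 52.6 and 113 CPM. The ratios were 0.194 (0.0748 to 0.423) and 0.487 (0.330 to 0.702). A single Chil3-poor cell held 18 of 63 Mgl2 UMIs, without which the Mgl2 ratio was 0.268. It was 0.140 without the top Mgl2 cell of the rich side. Mrc1 was alike in Chil3-rich and Chil3-poor cells, at 603 and 577 CPM, a ratio of 1.04 (0.923 to 1.18). FP1, the largest PCL cluster, did not show this: its Chil3-rich cells had 27.2 against 20.1 CPM of Clec10a, a ratio of 1.36 (0.905 to 1.9998), and the Mgl2 ratio of 0.469 (0.0510 to 2.11) rested on 12 and 2 UMIs in the poor and rich cells. The summed monocyte markers, of which Chil3 is one, were 1882 CPM in UBM, 1364 in saline and 3541 in PCL, and 8 of 10 past the list's minimum were at least 1.5-fold higher in PCL than in saline, beside 12.7% of all genes. The part of this in the Chil3 level was not tested.

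Cells with a UMI of several of the 7 markers were counted next. After thinning, 37.4% of UBM cells (35.3 to 39.5), 21.4% of saline cells (16.6 to 26.8) and 3.50% of PCL cells (2.66 to 4.52) had at least 3 of them; unthinned the shares were 55.1%, 32.8% and 10.7%. In F2, 1 of 7 UBM cells and 3 of 33 PCL cells had at least 3, the latter 9.09% (1.92 to 24.3). F2 of PCL also held 20050 CPM of macrophage markers, so it does not set a background for the PCL share. With Retnla counted only at 10 or more of 2500 UMIs, the shares were 27.1%, 18.3% and 3.13%, and 0 of 7 UBM cells of F2 had at least 3. R2 was the richest, with 89.8% of its cells, followed by RP3 of UBM with 76.6%, and RP2 had 18.7%; with the Retnla minimum of 10 UMIs these were 85.8%, 64.6% and 7.53%. In RP3 the share was 63.3% in saline and 18.1% in PCL. All 5 of the more abundant markers were met in 71 UBM cells, 1 saline cell and 1 PCL cell, and 0 thinned cells held 6 or 7. The most frequent combination was Mrc1 alone, in 892 cells, and in PCL 177 cells held Chil3 alone and 200 held Chil3 with Mrc1.

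Ccl17 and Ccl22 were found in few cells, and R1 held more of these than any other cluster. Over all 4374 cells, 28 had a Ccl17 UMI and 20 a Ccl22 UMI, 6 had both and 42 had either, and 13 of the 28 and 12 of the 20 had a single UMI. Cluster R1 held 18 of the 42 cells with 349 of all cells, FP1 held 12 and F1 held 8. R2 had 0 of 254 cells, which allows a share of up to 1.18%, and RP2 had 0 of 736, which allows up to 0.408%. These limits hold for cells with a UMI at this depth, not for cells that express the genes at a low level. R1 had 7 such cells of 289 in UBM, 8 of 46 in saline and 3 of 14 in PCL.

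Within R1 the cells with a chemokine UMI had a lower Retnla level than the others in UBM and saline, but of these the share of cells with Retnla was lower in saline alone. In UBM all 7 chemokine cells and 254 of the 282 others had a Retnla UMI, at 2137 and 10430 CPM, with median depths of 12660 and 7424.5 UMIs. In saline 1 of 8 chemokine cells (12.5%, interval 0.316 to 52.7) and 23 of 38 others (60.5%, 43.4 to 76.0) had one, at 15.8 and 9052 CPM. In PCL it was 0 of 3 and 1 of 11 cells. Mgl2 was detected in 5 of 7 chemokine cells and 186 of 282 others in UBM, at 818 and 539 CPM, and in 7 of 8 and 21 of 38 in saline, at 1040 and 356 CPM. In PCL Mgl2 was in 1 of 3 and 4 of 11 cells. By CPM, the 7 UBM and 8 saline R1 cells with a chemokine thus had more Mgl2 and less Retnla than the other R1 cells. The saline shares of cells with Mgl2 had overlapping intervals, 47.3 to 99.7% and 38.3 to 71.4%. How far these levels rest on single cells was not computed.

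Of these cells 9 had at least 5 UMIs of either chemokine, and they were of several kinds. The PCL cell with 108 Ccl22 UMIs had 11 of Ccl17, 22 of Ccr7, 38 of Fscn1 and 13 of Il4i1, genes of migratory dendritic cells, with 0 UMIs of Retnla, Chil3, Mrc1, Mgl2 and Clec10a and 0 of Csf1r. A UBM cell of RP1 with 5 Ccl22 UMIs had 9 of Ccr7 and 11 of Mrc1. The UBM cell with most Ccl17 (38 UMIs) had 0 of Ccr7 and Fscn1, 5 of Mgl2 and 4 of Csf1r, and a saline F1 cell with 14 Ccl17 UMIs had 35 of Retnla and 58 of C1qa. Cd209a was in 6 of the 18 R1 chemokine cells, all 6 among the 8 of saline, and in 28 of the 331 others. Among all R1 cells, Ccr7 was found in 1 of the 18 with a chemokine, the PCL cell above, and in 0 of 331 without. Dendritic cell markers without the 7 genes summed to 1571 CPM in R1 of saline and 593 CPM in R1 of UBM. R3 was at 695 CPM in UBM, above R1, and at 817 CPM in saline, below R1. The part of these markers in the chemokine levels was not tested. Over whole libraries the list, the chemokines included, summed to 337, 805 and 297 CPM in UBM, saline and PCL, 17 of 18 markers being in the table, with Flt3, Ccr7 and Cacnb3 at 0 in saline and Clec9a at 0 in PCL.

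The other genes of the pathway did not move as 1 block. Il4ra was at 195 CPM in UBM, 67.3 in saline and 96.0 in PCL, and Stat6 at 41.1, 43.4 and 52.8 CPM. Of 17 pathway genes past 10 CPM, 4 were at least 1.5-fold higher in UBM than in saline (9.5% of all genes were) and 7 lower (18.5%), with a median log2 ratio of -0.36, against -0.07 over all genes; Egr2 and Kdm6b were lowest. PCL against saline gave 2 of 16 higher (12.7%) and 5 lower (11.9%), and PCL against UBM 4 of 15 higher (17.2%) and 3 lower (8.89%). Il4, Il13 and Ccr4 were not analysed here.

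Among 31 other genes used as alternative activation markers, 27 passed 10 CPM in UBM or saline, of which 14 were higher in UBM and 4 lower, beside 9.5% and 18.5% of all genes, with a median log2 ratio of 0.61. Arg1, the arginase of alternatively activated cells, was at 2973, 33.4 and 1102 CPM in UBM, saline and PCL, so it shared with Chil3 the order UBM, PCL, saline. Cd209a ran the other way from UBM to saline, at 22.7 and 92.7 CPM. PCL against saline gave 9 of 24 higher and 7 lower, beside 12.7% and 11.9%, and PCL against UBM 3 of 27 higher (17.2% of all genes) and 16 lower (8.89%), with Ccl8 and Rnase2a lowest. Cd163 was at 332, 77.8 and 29.6 CPM, the order of Retnla. Of classical activation genes, 0 of 15 were higher in UBM than in saline and 11 lower, beside 9.5% and 18.5% of all genes, and 7 of 12 were higher in PCL than in UBM, beside 17.2%, Il1b at 678 against 104 CPM. PCL against saline gave 1 of 15 higher and 6 lower, beside 12.7% and 11.9%.

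Markers of other cells differed between the libraries and were not all low. Neutrophil markers summed to 112 CPM in UBM, 249 CPM in saline and 1667 CPM in PCL, and muscle fibre markers to 41.5, 690 and 30.3 CPM, so that the former exceeded each of the 7 genes in PCL and the latter each but Retnla in saline. None of the markers of eosinophils or of mast cells and basophils reached 10 CPM, and of those of T, B and NK cells only Gzma did. Eosinophil markers, of which 3 of 8 were in the table, summed to 2.12 to 5.28 CPM, and Siglecf was at 0.274, 0.530 and 0.454 CPM. Retnlg, a neutrophil relative of Retnla, was at 0.137 CPM in UBM, 0 in saline and 32.3 CPM in PCL, and at 1193 CPM in F2 of PCL. Adgre1, which encodes F4/80, was at 430, 413 and 272 CPM, and Zbtb46 of dendritic cells at 0.960, 1.59 and 0.182 CPM. Over all genes past 10 CPM, 9.5% were 1.5-fold higher and 18.5% lower in UBM than in saline, and 12.7% higher and 11.9% lower in PCL than in saline. Neutrophil markers were higher in PCL than in saline for 4 of 6 past the minimum and lower for 0, and muscle fibre markers were lower than in saline for 8 of 8 in both UBM and PCL. Of 12 macrophage markers, 0 were higher and 3 lower in UBM than in saline, and 2 were higher and 5 lower in PCL, of which the 3 lower and the 2 higher are near the share of all genes. Of 9 dendritic cell markers, the 2 chemokines included, 0 were higher and 7 lower in UBM, and 0 higher and 6 lower in PCL, than in saline. Of 9 monocyte markers 2 were higher and 6 lower in UBM than in saline. Of 3 fibroblast and endothelial markers past the minimum, 1 was higher and 1 lower in UBM than in saline.

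The gene families of the 7 were mixed as well. Of 11 macrophage C-type lectins, Mrc1, Mgl2 and Clec10a included, 2 were higher and 7 lower in UBM than in saline, beside 9.5% and 18.5% of all genes, Mrc1 and Mgl2 being the highest and Cd209a and Clec4n the lowest. PCL against saline gave 1 higher and 6 lower, beside 12.7% and 11.9%, with Clec4n and Clec4a2 highest. In the chitinase-like and resistin-like families only Chil3 and Retnla, and Retnlg in PCL, passed the minimum.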

How the data were processed

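UMI counts of 13242 genes in 4374 cells were used as deposited; per the series' design text the authors counted 10x 3′ version 2 libraries with Cell Ranger and clustered all cells with Seurat (version 2, per the submitters' processing notes), and cluster and condition of each cell are theirs. The notes list the build hg38 although the gene names are mouse names; the mouse build is not given in the sources used here. No doublet removal is stated and none was run, and no cell was filtered. Counts were summed per library or cluster and divided by all UMIs (CPM); intervals are exact Poisson, Clopper-Pearson or conditional binomial. Differences were called at 2-fold after adding 10 CPM, for genes with 50 CPM in either group and clusters with 50 cells in both libraries; lists used 10 CPM and 1.5-fold. Pairs of genes were counted after thinning to 2500 UMIs per cell (seed 1). Named beside the 7 genes are, for each, the 3 most alike over groups of at least 20 cells and the 3 with the highest co-detection ratio among genes in at least 50 thinned cells, the 2 highest and lowest of each list, and a fixed set (Il4ra, Stat6, Chil4, Arg1, Cd163, Retnlg, Adgre1, Flt3, Ccr7, Zbtb46, Siglecf); 1 gene under this rule is not reported here. The genes and lists were chosen with earlier results of these data known. The scripts were tested on simulated data. Tools were Python 3.11.15, numpy 2.4.6, pandas 2.3.3, scipy 1.17.1 and, for scaling factors, edgeR 4.0.16. Alternatives changed the scaling, pseudocount, minimum, thinning and strata, or left out the top cell, clusters F2 and R3 or cells with over 10% mitochondrial UMIs.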

Additional observations from a re-analysis of the deposited data

How the results depend on the processing

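Of 797 values recomputed under another setting, 620 kept their size within counting error or 1.5 times and 177 did not; of the 193 that answer a comparison, 14 moved. No difference of 2-fold or more changed direction, but 13 of 450 log2 ratios, of 8 gene comparisons with a size of at most 0.29, changed sign, such as Clec10a in UBM against saline and Mrc1 in PCL against saline. With equal weight for clusters FP1 and RP3, 3 instead of 5 genes were 2-fold lower in PCL than in UBM, 2 instead of 3 lower in PCL than in saline and 2 instead of 3 higher in UBM than in saline. Shares of all genes were not computed for these weights. Without the cell with most UMIs of a gene, UBM against saline in RP3 had 1 instead of 2 genes higher, and PCL against saline in FP1 had 0 instead of 1 lower, since a level then missed the minimum. Pairs in more cells than expected were 11, and became 17 of 19 without thinning, 5 in saline alone and 6 in PCL alone, where fewer pairs could be evaluated. Pairs at 1.5 times the expected cells were 0, and became 1 with the expectation taken within libraries alone and 1 in PCL alone, Mgl2 with Clec10a both times. Cells with at least 3 of the 7 genes became 55.1% (UBM), 32.8% (saline) and 10.7% (PCL) without thinning, 28.2% (UBM) and 1.48% (PCL) at 1500 UMIs, and 27.1% (UBM) with 10 UMIs asked of Retnla, a setting chosen after seeing the data. Scaling by the trimmed mean of M values moved the median log2 ratio of all genes from -0.04 to 0.11 for UBM against saline, from 0.09 to 0.12 for PCL against saline and from 0.16 to 0.04 for PCL against UBM. No paired analysis was possible because each condition is 1 library, and for the same reason no replicate could be left out. Treatment, library and animal cannot be told apart. Depth limits Ccl17 and Ccl22 most, which had 14 to 115 UMIs per library.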

Other observations

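Ranked by Mgl2 instead of Retnla, the UBM cells of RP3 had 175 CPM of Chil3 in the 65 cells with least Mgl2 and 14.6 CPM in the 50 with most, a ratio of 0.0831 (counting interval 0.0218 to 0.227). Of the 47 Chil3 UMIs on the low side 32 were in 1 cell, without which that level was 56.7 CPM and the ratio 0.257. Retnla was 10520 and 33346 CPM in the same cells. In R2 the same ranking gave 1469 and 2182 CPM of Chil3, a ratio of 1.49 (1.36 to 1.63).

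In PCL, cells of F1 with most Clec10a had 75.3 CPM of Mgl2, against 18.5 CPM in cells with none, a ratio of 4.08 (2.65 to 6.35), and 332 against 454 CPM of Chil3, a ratio of 0.730 (0.634 to 0.838). A single Clec10a-rich cell held 18 of 60 Mgl2 UMIs, without which the Mgl2 ratio was 2.89. It was 4.71 without the top Mgl2 cell of the other side. By CPM, the 20 UBM and 12 saline R1 cells with a Cd209a UMI had more Mgl2 than those without. The levels were 1257 against 503 CPM in UBM and 985 against 328 CPM in saline. Their Retnla CPM was lower, at 6415 against 10358 and 5894 against 7498. The share of cells with a Retnla UMI was 90% against 90.3% in UBM and 41.7% against 55.9% in saline. Intervals were not computed for these groups.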
